A study of Arabidopsis thaliana with 3 samples.

Results

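The FHY3 peaks described here lie around the centromeres of chromosomes 2, 3, 4 and 5 of Arabidopsis thaliana. They were chosen by position alone, as every deposited peak with its midpoint between 2 and 6 Mb of chromosome 2, 11.5 and 15.5 Mb of chromosome 3, 1.5 and 5.5 Mb of chromosome 4, or 10 and 14 Mb of chromosome 5. These windows of 4 Mb held 426 of the 1475 nuclear peaks of replicate 1 (28.9%) and 297 of the 1354 of replicate 2 (21.9%). Overlapping peaks of the replicates were joined into their union, which gave 569 regions of the 1885 in the nuclear genome (30.2%). No score entered this choice.

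The ChIP-seq samples were 2 biological replicates of inflorescences with flowers of stage 8 and younger, from greenhouse plants given 16 h light and 8 h dark. The plants were fhy3-4 mutants that carried the transgene 35S:3FLAG-FHY3-3HA, and tagged FHY3 was immunoprecipitated from their chromatin through its FLAG tag. The 35S promoter is active in most plant tissues, so the tagged protein was not limited to the cells in which FHY3 itself is expressed. The remaining sample was input DNA, whose values were not used here, and the control without antibody that the design names was not analysed here. The series compares no treatments or genotypes, and its comparisons are between the replicates and between parts of the genome.

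FHY3 (FAR-RED ELONGATED HYPOCOTYL 3) is a transcription factor of phytochrome A signalling that is related to the transposases of Mutator-like elements. It activates genes of the far-red light response and has further roles in the clock, in chloroplasts and in flowers. Pericentromeres are the stretches on either side of a centromere, where chromatin is compact, protein-coding genes are sparse, and transposons, pseudogenes and satellite repeats make up most of the sequence. The gene table of TAIR10.1 described the windows in the same way. Protein-coding genes covered 12.4% of their bases and loci annotated as pseudogenes 37.1%, against 62.5% and 3.29% in the chromosome arms, which are all nuclear sequence outside these windows and outside chromosome 1 from 13 to 17 Mb.

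Each peak had a start, an end and a score given by the authors. No source states the scale of this score, which had a floor of 23.03 and a ceiling of 3100 in both lists. Reads were not available with the lists, so depth is unknown and a single peak carries no error. Intervals given below are 95% Wilson intervals and cover the counting of peaks only. Differences between parts of the genome are given as values side by side, with no test, since neighbouring peaks of a library are not replicates.

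The regions were spread unevenly over the chromosomes. Chromosome 5 had 191 regions, chromosome 4 had 160, chromosome 3 had 121 and chromosome 2 had 97. This made 47.8 regions per Mb on chromosome 5 and 24.2 on chromosome 2, beside 10.5 per Mb in the arms and 69.0 per Mb in the window of chromosome 1 from 13 to 17 Mb. Both replicates gave the same order of chromosomes. Replicate 1 had 140, 127, 90 and 69 peaks on chromosomes 5, 4, 3 and 2, and replicate 2 had 111, 69, 67 and 50. The regions covered 731 kb, or 4.57% of the 16 Mb in the windows, of which chromosome 5 had the highest value (5.77%), followed by chromosome 4 (5.27%), while chromosomes 2 and 3 had 3.63% and 3.59%. In the arms 1.12% was covered.

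A single stretch held much of chromosome 5. Between 11.5 and 12 Mb lay 91 regions, 47.6% of that window and 16.0% of all regions described here, while the bins of 0.5 Mb on chromosome 5 had a median of 15.0. These 91 regions covered 22.0% of the stretch, which the gene table gives 6 protein-coding genes and 75 pseudogenes. Of the 91, 29 were called in both lists, 40 in replicate 1 only and 22 in replicate 2 only. Their median best score was 35.05, against 32.1 for all other regions of the windows. The stretch was dense in regions, and its median score was near that of the rest. It also held high scores, such as the region from 11561760 to 11574377, at 3100 in both lists, and its high neighbours described below.

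**Figure D1:**
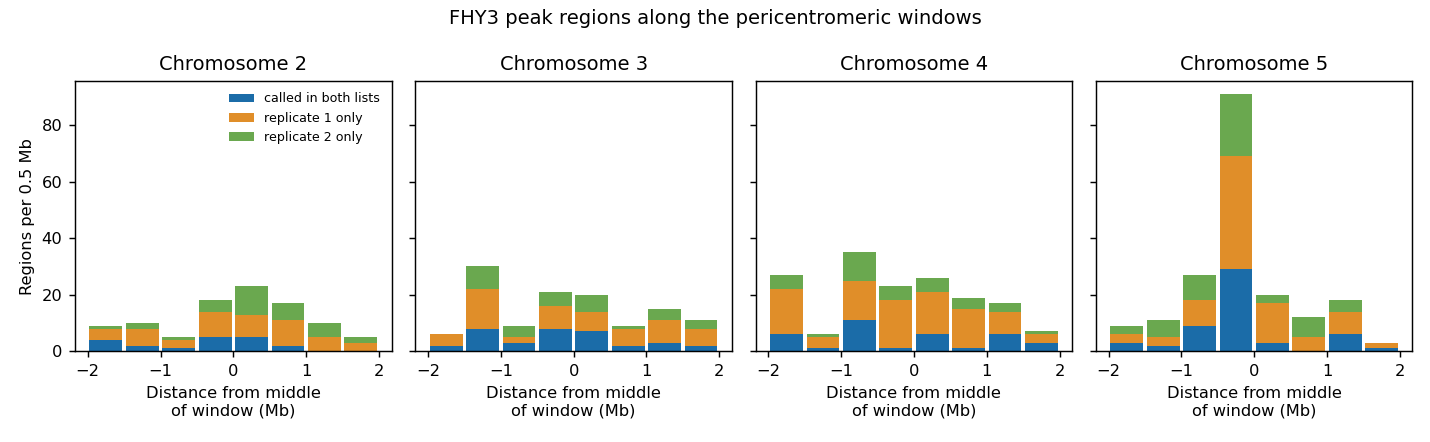
Number of regions in each bin of 0.5 Mb (vertical axis) against the distance of the bin from the middle of its window in Mb, for chromosomes 2 to 5; colours split the regions into those called in both lists, in replicate 1 only and in replicate 2 only. The bin with 91 regions on chromosome 5 stands above all others, of which the highest, on chromosome 4, has 35.

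The windows of chromosomes 2, 3 and 4 had no bin of that kind, and chromosome 1 was not divided into bins. The densest bin of chromosome 4, from 2.5 to 3 Mb, had 35 regions against a median of 21.0. It was also the bin with the most protein-coding genes of that window, 76, and the fewest pseudogenes, 44. On chromosome 3 the densest bin, from 12 to 12.5 Mb, had 30 regions against a median of 13, and on chromosome 2 the bin from 4 to 4.5 Mb had 23 against 10. The bin of chromosome 2 from 3 to 3.5 Mb had the most protein-coding genes of all 32 bins, 102, and 5 regions. The gene table does not mark genes of organelle origin, so their number among the 102 is not known here.

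Regions became sparser past some edges of the windows and not past others. Just inside the low edge of chromosome 4 the 0.5 Mb bin had 27 regions with a median best score of 31.6, and the 0.5 Mb just outside had 4 with a median of 112.9. At the high edge of chromosome 5 the numbers were 3 inside and 17 outside, with medians of 32.0 and 31.4. At the other 6 edges there were 5 to 11 regions inside and 0 to 15 outside.

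Neighbouring regions lay close together. The gap from the end of a region to the start of the next had a median of 3329 bp on chromosome 5 and 7047 bp on chromosome 4. It was wider on chromosome 3, at 10374 bp, and on chromosome 2, at 11699 bp. In the arms the median gap was 55475 bp, and in the chromosome 1 window it was 1974 bp. Of the 565 gaps in the windows 101 were at most 1 kb (17.9%), and chromosome 5 had the most of these, 42, and chromosome 2 the fewest, 10. In the arms the share was 5.05%, and in the chromosome 1 window 37.5%. Long empty stretches lay between the close neighbours. The shortest gaps were 5 bp on chromosome 5 and 15 bp on chromosome 4, and the longest stretches with no region were 321 kb on chromosome 4 (2300911 to 2622405) and 238 to 314 kb on the others.

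**Figure D2:**
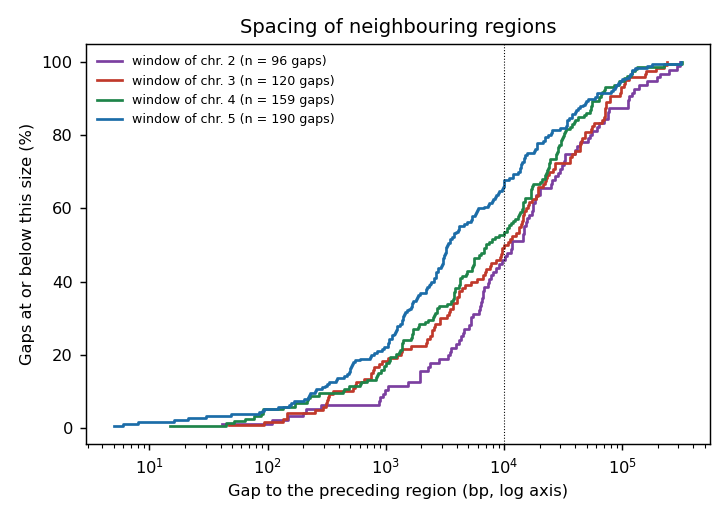
Cumulative share of gaps between neighbouring regions (vertical axis, %) against gap size in bp on a log axis, with a line for each window; the dotted line marks 10 kb. At 10 kb the line of chromosome 5 has reached 66.3%, and those of chromosomes 4 and 2 have reached 53.5% and 45.8%.

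Runs of regions were defined as 3 or more with each gap at most 10 kb. There were 65 runs, with 338 of the 569 regions (59.4%), while 14.3% of regions lay in such runs in the arms and 76.1% in the chromosome 1 window. Chromosome 5 had the highest share of its regions in runs (69.6%), before chromosome 4 (61.3%), and chromosomes 3 and 2 were close to each other (49.6% and 48.5%). The median run held 4 regions and spanned 13.4 kb.

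The run with the most regions, on chromosome 5 from 11601458 to 11677965, had 30 regions over 76.5 kb, also the longest span. Of these, 10 were called in both lists, 13 in replicate 1 only and 7 in replicate 2 only, and 30.7% of the span was covered. Its best score was 149 and its median best score 32.7. The closest pair of all regions lay in it, from 11625230 to 11626480 and from 11626486 to 11627459, both over the pseudogene AT5G29646 and both called in replicate 1 only, with scores of 28.7 and 35.7. The next by number of regions was also on chromosome 5, from 11816155 to 11866159, with 17 regions of which 2 were called in both lists.

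On the other chromosomes the runs with the most regions were smaller. On chromosome 4 the run from 2824642 to 2866231 had 14 regions, with 4 called in both lists and 47.0% of its span covered. On chromosome 3 the run from 12026433 to 12056112 had 11 regions, with 3 in both lists, and no run of chromosome 2 had more than 6. Regions in runs were more often called in both lists than regions outside them on chromosome 3 (24 of 60 and 11 of 61) and on chromosome 5 (45 of 133 and 8 of 58). On chromosome 4 this went the other way, with 17 of 98 in runs and 18 of 62 outside.

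Most regions were narrow. Their median width was 870 bp, with quartiles of 618 and 1403 bp, and the medians by chromosome ran from 830 bp on chromosome 3 to 973 bp on chromosome 2. In the arms the quartiles were 686 and 1258 bp around a median of 970 bp. The windows thus had both a lower quartile and a higher quartile outside those of the arms. So did the chromosome 1 window, with quartiles of 646.5 and 1548 bp. Regions of at least 5 kb numbered 12 in the windows, 4 in the arms and 3 in the chromosome 1 window. The 12 held 15.2% of all bases covered in the windows, 7 of them were called in both lists and 5 in replicate 1 only.

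Scores were low in both lists. The median was 33.0 in replicate 1 and 31.8 in replicate 2, and by chromosome it ran from 29.96 to 34.73 in replicate 1 and from 28.92 to 35.85 in replicate 2. Arm peaks had medians of 65.8 and 117, and peaks of the chromosome 1 window 42.9 and 42.3. A score of at least 100 was reached by 21 of 426 window peaks of replicate 1 (4.93%, interval 3.25 to 7.42%) and by 19 of 297 of replicate 2 (6.40%, 4.13 to 9.77%), while over all nuclear peaks the shares were 26.1% and 36.3%. In the chromosome 1 window 16.6% and 13.6% scored at least 100. Peaks within a few units of the floor were common, with 40.6% and 43.4% scoring under 30, against 21.9% and 23.8% in the chromosome 1 window.

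Among the few high scores were the highest in the data. The ceiling of 3100 was reached by 7 window peaks of replicate 1 and 6 of replicate 2. In each list 1 arm peak and 1 peak of the chromosome 1 window also reached it. At 6 regions both replicates were at the ceiling. Chromosomes 2 and 5 had 1 of these each, and chromosomes 3 and 4 had 2 each. The narrowest spanned 3855 bp and the widest 16835 bp (median 9924 bp), and together they held 8.18% of the covered bases of the windows. All 6 overlapped a locus annotated as a pseudogene, but the share of all regions that did so was not counted, and wide regions meet more loci. By midpoint 3 of the 6 lay in a pseudogene, beside 39.2% of all regions of the windows.

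The edges of these ceiling regions fell at nearly the same base in both replicates. On chromosome 5 the peak of replicate 1 ran from 11561760 to 11574348 and that of replicate 2 from 11561762 to 11574377, over 7 pseudogenes with the midpoint in AT5G30870. On chromosome 4 the peaks at AT4G06656 ran from 3842831 and 3842844 to the same last base, 3848578, and those over AT4G05613 from 2966602 to 2973815 and from 2966591 to 2973820. On chromosome 3 the peaks at AT3G32400, a protein-coding gene, ran from 13358204 and 13358196 to 13362050 in both lists. The others on chromosome 3, with midpoints in the pseudogene AT3G33154, ran from 13960452 to 13973738 and from 13960453 to 13973919.

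At these 5 regions no edge differed by more than 181 bp. The ceiling region of chromosome 2 differed more, since its peak began at 3530649 in replicate 1 and 3527605 in replicate 2, 3044 bp apart, and ended at 3544439 and 3544395. Its midpoint lay in no annotated gene. A neighbour from 3521174 to 3523686 scored 3095.65 in replicate 1 and 2487.36 in replicate 2, with edges 4 and 18 bp apart. It overlapped the ends of ABCC13 (AT2G07680), which encodes an ABC transporter and holds the midpoint, and of MCM5 (AT2G07690), a subunit of the helicase that opens DNA for replication. On chromosome 5 the region from 11029969 to 11034650, at the pseudogene AT5G29015, reached the ceiling in replicate 1 and 2685.4 in replicate 2.

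The ceiling region of chromosome 5 had high neighbours on its lower side. One was a region from 11557856 to 11560786, at the pseudogene AT5G30450, which scored 854.5 in replicate 1 and 2027.87 in replicate 2, and another ran from 11537289 to 11549287, at the protein-coding gene AT5G31412, and scored 1209 and 379. The first scored higher in replicate 2 and the second in replicate 1. On chromosome 4 the peaks from 3876622 to 3879336 scored 1447 and 426, and the peak of replicate 2 ended 1344 bp beyond that of replicate 1.

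Beside this lay a pair of high-scoring regions found in replicate 1 only. The first ran from 3886384 to 3894485, with a score of 1724 and its midpoint in the pseudogene AT4G06674. The second ran from 3894550 to 3902153, with a score of 2032. It overlapped the protein-coding gene AT4G06676, and its midpoint lay in no annotated gene. The gap between these regions was 64 bp, and together they spanned 15.8 kb. The nearest peaks of replicate 2 were 7047 and 5437 bp away. In the arms no peak called in replicate 1 only scored over 92.5, and the highest of replicate 2 only scored 475, so no lone peak of the arms came near these scores.

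**Figure D3:**
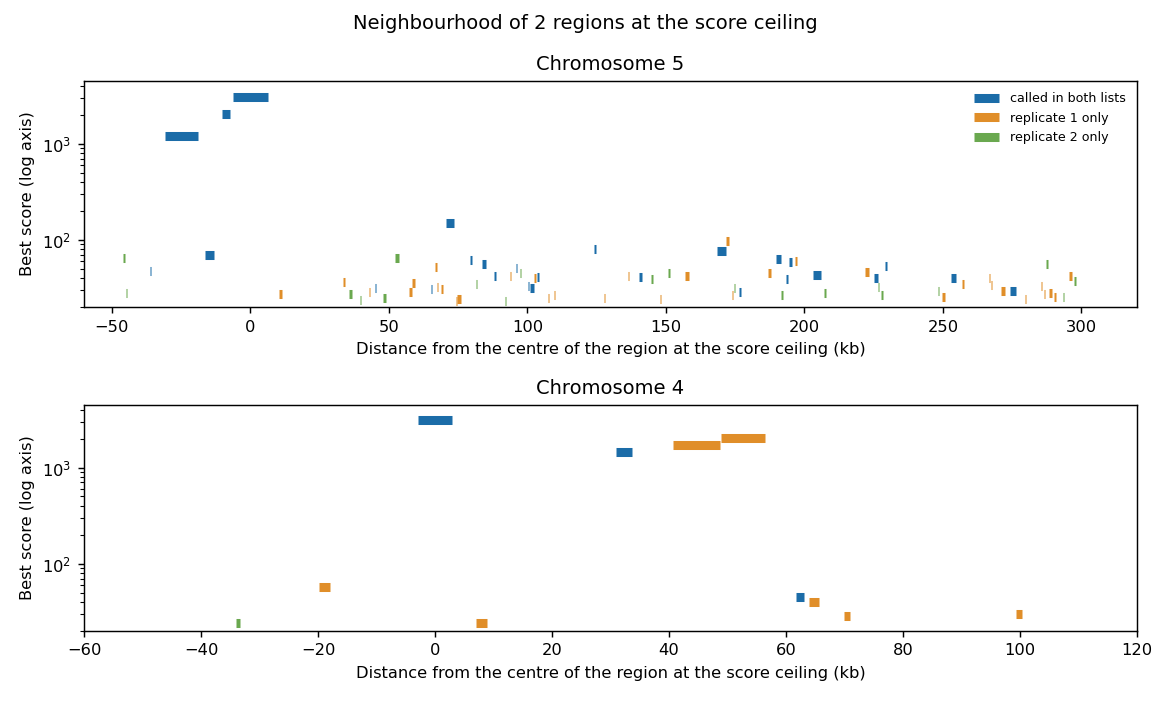
Regions drawn to scale as bars (horizontal axis, distance in kb from the centre of the ceiling region at AT5G30870 on chromosome 5, upper panel, and at AT4G06656 on chromosome 4, lower panel) at the height of their best score on a log axis, coloured by the list that called them. The upper panel shows many narrow regions, nearly all scoring under 100, to the right of the high ones; the lower panel shows the wide pair of replicate 1 with scores of 1724 and 2032.

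In all, 25 regions had a score of at least 100 in either list, 4 each on chromosomes 2 and 3, 10 on chromosome 4 and 7 on chromosome 5. Both lists called 21 of them, and 15 scored at least 100 in both. The 4 called in a single list were the pair on chromosome 4, a region of 8135 bp on chromosome 2 from 5389292 to 5397426 with a score of 370 in replicate 1, and a region on chromosome 4 from 3767947 to 3769599 with 148 in replicate 2. On chromosome 3 the highest region found in 1 list, from 11921411 to 11929189 at AT3G30305, scored 97.0 in replicate 1, and on chromosome 5 it was the one from 11739743 to 11740905 at the pseudogene AT5G31821, with 97.2 in replicate 1.

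Some other high regions called in both lists were under 2 kb wide. On chromosome 3 the region from 13402797 to 13403133, only 337 bp wide, scored 401 in replicate 1 and 373 in replicate 2, with edges 7 and 12 bp apart. On chromosome 2 the region from 2890331 to 2891389 scored 96.9 and 216, and on chromosome 4 the one from 1978600 to 1979935, at the pseudogene AT4G04130, scored 223 and 312. The region of chromosome 4 from 1571112 to 1572705, singled out after its values were seen, scored 802 and 1684 and overlapped the end of AT4G03540. These last 3 scored higher in replicate 2, as most arm regions did.

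Agreement between the replicates was lower in the windows than over the whole genome. Of 569 regions, 142 were called in both lists (interval of the share 21.6 to 28.7%), against 46.8% of all nuclear regions. Chromosome 3 had the highest share, 28.9%, and chromosome 2 the lowest, 19.6%, with 27.7% for chromosome 5 and 21.9% for chromosome 4, and the intervals of the 4 chromosomes overlapped. Of the peaks of replicate 1, 149 of 426 (35.0%, 30.6 to 39.6%) overlapped a peak of replicate 2, against 62.5% of all nuclear peaks of that list. Of the peaks of replicate 2, 147 of 297 (49.5%, 43.9 to 55.2%) overlapped one of replicate 1, against 66.8%. The chromosome 1 window gave 67.6% and 77.7%.

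Replicate 1 had more peaks than replicate 2 in every window. The ratio of their numbers was 1.43 in all, with 1.84 on chromosome 4 and 1.26 to 1.38 on the other chromosomes. In the arms it was 0.942, and in the chromosome 1 window 1.20. Chromosome 4 had the largest number of regions seen in replicate 1 only, 91, and between 3 and 3.5 Mb 17 of its 23 regions were of that kind and 1 was called in both lists. Between 4 and 4.5 Mb the numbers were 14 of 19 and again 1.

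Within classes of score, the windows and the arms differed in opposite ways in the replicates. Among replicate 1 peaks scoring 30 to 50, 47 of 166 window peaks (28.3%, 22.0 to 35.6%) and 108 of 176 arm peaks (61.4%, 54.0 to 68.2%) overlapped a peak of replicate 2. From 50 to 100 the shares were 62.1% (50.1 to 72.9%) and 96.2% (91.5 to 98.4%). Among replicate 2 peaks scoring 30 to 50, 57 of 106 window peaks (53.8%, 44.3 to 63.0%) and 48 of 144 arm peaks (33.3%, 26.2 to 41.4%) overlapped a peak of replicate 1. From 50 to 100 these were 67.4% (52.5 to 79.5%) and 58.7% (50.5 to 66.5%), and their intervals overlapped.

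In the lowest class, under 30, windows and arms had 24.9% and 27.6% in replicate 1 and 33.3% and 27.5% in replicate 2, with overlapping intervals. At scores of 100 and over the windows had 18 of 21 peaks (85.7%) in replicate 1 and 18 of 19 (94.7%) in replicate 2. The arms had 323 of 323 and 432 of 444. From 30 to 100 the windows thus had the lower share in replicate 1 and not in replicate 2. A class of score need not stand for the same level in both lists. Where peaks of both lists met, replicate 2 scored higher in 89.7% of arm regions and in 41.5% of window regions. How far this offset between the lists shaped the opposite directions was not tested, so the shares do not compare windows and arms at equal strength. In the chromosome 1 window the shares from 30 to 50 were 61.7% and 75.3%, above those of the other windows in both lists.

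**Figure D4:**
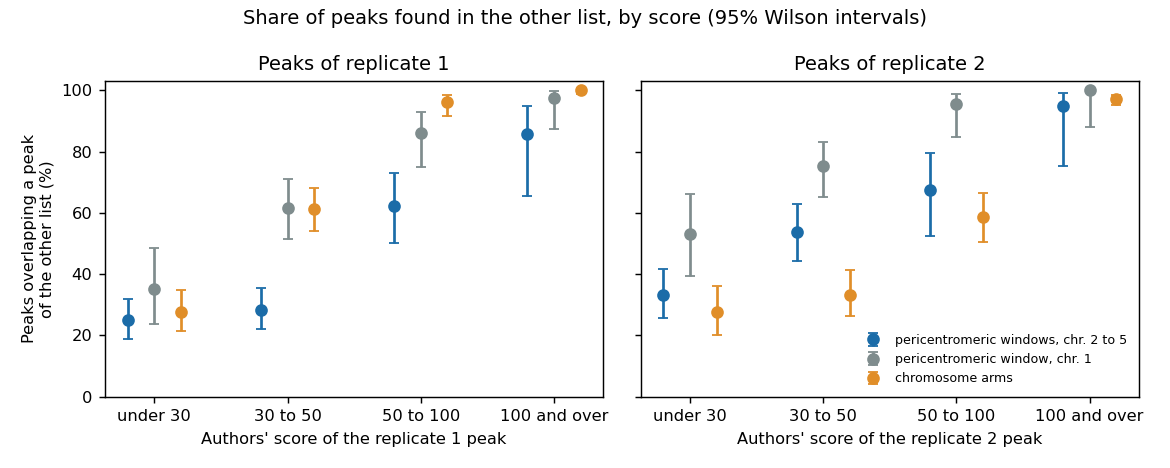
Share of peaks that overlap a peak of the other list (vertical axis, %), by class of the authors' score (horizontal axis), for replicate 1 (left) and replicate 2 (right); points are shares and bars 95% Wilson intervals, for the windows of chromosomes 2 to 5, the chromosome 1 window and the arms. From 30 to 50 the windows lie below the arms in replicate 1 (28.3% and 61.4%) and above them in replicate 2 (53.8% and 33.3%).

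The scores themselves stood in a different relation in the windows and the arms. Of the 142 regions called in both lists, replicate 2 had the higher score in 59 (41.5%), while in the arms it did so in 529 of 590 (89.7%) and in the chromosome 1 window in 34.0%. Among regions with a best score under 100 the shares were 43.8% in the windows, 68.4% in the arms and 36.8% in the chromosome 1 window. By chromosome this share ran from 36.8% on chromosome 2 to 47.2% on chromosome 5. Median scores of these regions were 41.0 in replicate 1 and 39.1 in replicate 2 in the windows, and 112 and 212 in the arms. The lists share no stated scale, so a higher score in either list does not show more binding, and depth and library quality were not known and not tested.

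Spearman's rho of the scores over the 142 regions was 0.571 and Pearson's r of log10 scores 0.923. Without the 7 regions at the ceiling in either list they were 0.501 and 0.825. For the 121 regions with a best score under 100 rho was 0.369 and r 0.354, and for the 21 above it 0.938 and 0.892. The 590 arm regions had a rho of 0.910 and an r of 0.906, and the 152 of them under 100 had 0.462 and 0.471. These are descriptions across regions that share 2 libraries. The high r of the windows thus rested on the few high scores, and under 100 the order of shared regions was loosely related in windows and arms.

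**Figure D5:**
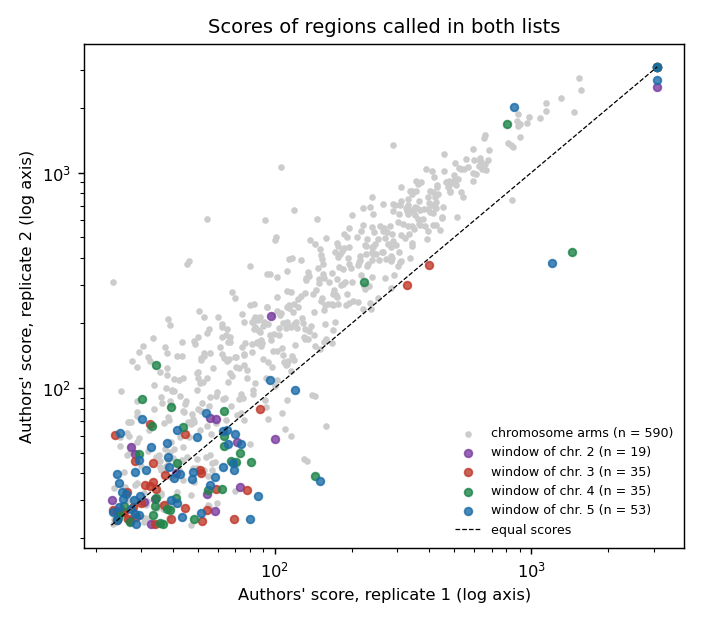
Authors' score in replicate 2 (vertical) against replicate 1 (horizontal), both on log axes, for regions called in both lists; grey points are arm regions, coloured points the windows of chromosomes 2 to 5, and the dashed line marks equal scores. Arm points lie mostly above the line (89.7%), and window points gather at low scores on either side of it (41.5% above).

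Where the replicates overlapped, their peaks covered much the same bases. Among 133 window regions made of 1 peak from each list, the overlap was a median of 81.7% of the union, and in 572 such arm regions it was 81.0%. Median offsets were 78 bp at the start and 69 bp at the end. Midpoints were within 200 bp in 102 of 133 (76.7%), and in 92.5% of the arm regions. The remaining 9 shared regions held several peaks of a list.

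Regions called in a single list were often near a peak of the other. The nearest one was a median of 6984 bp away for the 277 regions of replicate 1 and 4432 bp for the 150 of replicate 2, against 36819 and 37010 bp in the arms. Within 1 kb of a region lay a peak of the other list in 14.1% and 22.7% of cases. The closer spacing of all regions in the windows, given above, moves with these distances, and its part in them was not tested. The median score of the lone regions of replicate 1 was 30.96 and their median width 858 bp, while those of replicate 2 had 28.7 and 720 bp, and shared regions were a median of 1223 bp wide.

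Beside annotated loci, the regions were distributed much as the bases of the windows were. Midpoints lay in a pseudogene for 223 regions (39.2%, interval 35.3 to 43.3%), in a protein-coding gene for 42 (7.38%, 5.51 to 9.83%), in other genes for 3 and in no annotated gene for 301 (52.9%, 48.8 to 57.0%). The same classes took up 37.1%, 12.4%, 0.977% and 49.6% of the bases. Only the interval for protein-coding genes left out its share of bases. On chromosome 5, 7 of 191 midpoints lay in a protein-coding gene (3.66%, 1.79 to 7.37%), which cover 10.8% of that window. Of these 191 regions, 91 lay between 11.5 and 12 Mb, a stretch with 6 protein-coding genes. The intervals count regions as separate and take no account of such grouping. On chromosome 3 it was 10.7% (6.39 to 17.5%) in protein-coding genes beside 8.49% of bases. Among the 142 shared regions protein-coding genes had 10.6% (6.51 to 16.7%) and among the 427 others 6.32% (4.38 to 9.04%). Arm regions had 58.9% of midpoints in protein-coding genes (55.9 to 61.9%), which cover 62.5% of arm bases. In the chromosome 1 window it was 7.61% (5.03 to 11.4%) beside 12.3% of bases. The interval for protein-coding genes thus lay below the share of bases in these parts too.

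The 42 midpoints in protein-coding genes fell in 38 genes, 4 of which had a pair of regions, and 33 of the 42 had a best score under 50. Of these regions 15 were called in both lists, 19 in replicate 1 only and 8 in replicate 2 only. Some genes with known roles were among them, and these were picked after their values were seen. DDB1A (AT4G05420), an adaptor of CUL4 ubiquitin ligases that help to repress light responses in the dark, had a shared region from 2750163 to 2750746 with scores of 41.1 and 30.7 and a second one in replicate 2 only with 32.2. TES (AT3G43210), a kinesin needed for cytokinesis after male meiosis, had a region in replicate 1 only with 24.9 and a separate one in replicate 2 only with 34.7. RPS1 (AT5G30510), a ribosomal protein of the chloroplast, had one in replicate 2 only with 64.7, inside the run of 30 regions.

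A single region overlapped a gene annotated as ribosomal RNA, AT3G41768. It lay on chromosome 3 from 14199231 to 14199615, was called in replicate 1 only and scored 27.5. Every statement on genes assumes that the peaks were placed on the same frame as TAIR10.1, as no source used here names a build. Positions printed are those of the lists, counted from 1.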

How the data were processed

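The submitters' processing notes name MACS 1.4.2, Bowtie2 2.2.3 and CASAVA 1.8. Not given in the sources used here are the build, the settings, which control MACS had and how reads with several matches were placed. The authors deposited a peak list for each ChIP sample, so peaks were called per sample, with a start, an end and a score of unstated scale. The score was used only to describe, rank or group peaks. Starts were converted to count from 1. Peaks with a midpoint in a window were kept, and peaks sharing 1 bp or more between the lists were joined; 0 overlaps crossed a window edge. Gene positions and classes came from the RefSeq table of TAIR10.1, a midpoint in several genes being given to a protein-coding gene first, then a pseudogene. It holds no sequence, so no sequence is printed and the planned search for the FHY3 binding site was not run. Joining, spacing and runs were tested on simulated data. The regions named are, per chromosome, the best 3 shared regions by summed score rank, the highest in a single list, the widest and the run with the most regions, and all regions at the ceiling, over a gene and scoring 100 or more in both, over ribosomal RNA, or closest together. The rule also covered genes of organelle origin, which the table does not mark. Windows, measures and this rule were chosen with earlier results of these data known. Depth is unknown. Alternatives are given with the closing observations. Calculations used Python 3.11.15, numpy 2.4.6, pandas 2.3.3, scipy 1.17.1 and matplotlib 3.10.9.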

Additional observations from a re-analysis of the deposited data

How the results depend on the processing

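Of 51 values under alternatives, 28 moved by more than the limits used (1.5 times for counts, the 95% interval for shares, the SD between replicates for medians) and 23 did not. This tally does not measure how firm the results are. Some moves were built in, since a score cutoff leaves fewer peaks and protein-coding genes are a part of all genes. The SD came from the values of single replicates, which were also among the 51. With a score of at least 50, 116 regions were left, 32 in both lists, with a median width of 1343 bp, a median gap of 31227 bp and 36.2% in runs; at 100 there were 25 and 15, and 71.4% and 78.9% of peaks of replicates 1 and 2 overlapped. Windows narrowed by 1 Mb at each side gave 375 regions, 93 in both lists and 66.4% in runs. A reciprocal overlap of 50% lowered the overlapping peaks to 29.6% and 42.4%, and midpoints within 200 bp to 24.6% and 35.4%. Joining regions up to 500 bp apart gave a median width of 946.5 bp and 50% in runs. Without a replicate there were 297 to 426 regions, median widths of 846 to 929.5 bp, median gaps of 9934 to 16047 bp and 40.1 to 49.8% in runs, since fewer peaks enter. Gaps of at most 5 and 20 kb put 41.5% and 76.8% in runs. Protein-coding genes alone held 7.38% of midpoints, and all genes 47.1%. Chosen after the data were seen, leaving out the densest 0.5 Mb of chromosome 5 gave 53.1% in runs, a median gap of 10225 bp and 113 shared regions, and leaving out regions at the ceiling gave a rho of 0.501. Other causes were not tested. No paired analysis was possible because all ChIP samples form 1 group. With depth unknown, a peak missing from a list may have been out of reach of that library.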
